A study of Mus musculus with 8 samples.

Results

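The 40 genes described here encode the enzymes and regulators of glycolysis, the pyruvate dehydrogenase kinases, the oxygen-sensing machinery of the hypoxia-inducible factors (HIFs) and a group of genes known as HIF targets. They were chosen by name: every probe that is not a control and carries one of the 40 gene names was taken, which gave 69 probes (78 spots) of the 39429 probes on the array. RNA was compared between NMuMG-NT2197 cells expressing ShcA R175Q (4 samples) and the same line expressing wild-type ShcA (4 samples). The labels describe both cultured cells and microdissected material, so whether the RNA came from cultures or from tissue was not resolved. NMuMG-NT2197 is a derivative of the mouse mammary epithelial line NMuMG. In R175Q the arginine at amino acid 175 of ShcA is replaced by glutamine. This residue lies in the PTB domain, the part of this adaptor protein that binds phosphotyrosine on activated receptors. Both groups carried the ShcA cDNA in the pMSCV/hygro expression vector, so the control cells express an added ShcA too, and neither a parental nor an empty-vector group is among the 8 samples. Whether the cells keep their own ShcA, and whether the replicates came from separate cultures, is not given in the sources used here, so each p-value measures only the spread between these samples, which may be technical. Each array carried 1 sample in Cy3 against a common reference in Cy5, with no dye swap, and every level below is the log2 ratio of sample over reference.

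Glycolysis converts glucose to pyruvate, and its committed step is catalysed by phosphofructokinase, whose activator fructose-2,6-bisphosphate is made and removed by the PFKFB enzymes. The pyruvate dehydrogenase kinases shut the mitochondrial complex that turns pyruvate into acetyl-CoA, which leaves more pyruvate for lactate dehydrogenase. When oxygen is present the EGLN prolyl hydroxylases mark HIF-alpha subunits for destruction through VHL, and HIF1AN hydroxylates them so that they bind coactivators less well. When oxygen falls the subunits accumulate and bind the letters ACGTG or GCGTG in the promoters of many genes of glycolysis, pH control, collagen hydroxylation and mitophagy. Much of this regulation acts on protein rather than on RNA, and an array reads RNA only.

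The windows around the annotated start are printed for 4 of the 13 members that differed between the groups, those with the lowest p among members with a RefSeq window. Each runs from 250 bases before to 50 bases after the start in GRCm38.p6, 5′ to 3′ on the gene's own strand, with each ACGTG or GCGTG, on either strand, in capitals. They lie at chr2:11553880-11554179 for Pfkfb3 (the first of 2 windows listed), chr7:138909457-138909756 for Bnip3, chr10:78009758-78010057 for Pfkl and chrX:93832101-93832400 for Pdk3, all on the minus strand.
Pfkfb3: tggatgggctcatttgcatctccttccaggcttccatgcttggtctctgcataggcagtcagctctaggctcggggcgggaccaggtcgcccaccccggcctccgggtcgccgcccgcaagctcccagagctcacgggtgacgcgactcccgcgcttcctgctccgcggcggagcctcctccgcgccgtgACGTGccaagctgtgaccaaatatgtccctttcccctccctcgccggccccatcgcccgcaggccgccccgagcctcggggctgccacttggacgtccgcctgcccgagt
Bnip3: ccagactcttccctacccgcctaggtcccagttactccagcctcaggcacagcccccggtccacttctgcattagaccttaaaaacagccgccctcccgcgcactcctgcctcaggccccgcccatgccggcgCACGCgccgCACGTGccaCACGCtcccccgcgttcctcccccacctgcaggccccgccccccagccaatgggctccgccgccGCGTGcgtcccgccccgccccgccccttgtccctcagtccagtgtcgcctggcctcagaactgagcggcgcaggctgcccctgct
Pfkl: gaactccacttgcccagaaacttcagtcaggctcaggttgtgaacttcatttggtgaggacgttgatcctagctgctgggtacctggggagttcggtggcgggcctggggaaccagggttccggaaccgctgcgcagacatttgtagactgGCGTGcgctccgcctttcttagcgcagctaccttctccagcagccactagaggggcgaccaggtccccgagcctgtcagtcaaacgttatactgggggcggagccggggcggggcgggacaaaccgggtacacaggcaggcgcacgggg
Pdk3: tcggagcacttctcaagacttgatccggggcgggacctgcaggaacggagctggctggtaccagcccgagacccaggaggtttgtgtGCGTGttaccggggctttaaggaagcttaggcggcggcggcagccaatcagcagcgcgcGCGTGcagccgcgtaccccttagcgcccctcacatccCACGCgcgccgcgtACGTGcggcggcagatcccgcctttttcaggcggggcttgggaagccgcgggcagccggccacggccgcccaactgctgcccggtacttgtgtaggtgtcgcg

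The Bnip3 window held the 6 letters CACGTG, which read as ACGTG on both strands and so count as 2 overlapping matches, and 3 copies of GCGTG, the nearest to the start at position −35. The Pdk3 window held 3 copies of GCGTG and 1 of ACGTG, the Pfkl window 1 copy of GCGTG at position −99 and the Pfkfb3 window 1 copy of ACGTG at position −60. Over the first window of all 27025 genes in the table, 19.7% held ACGTG, 32.5% held GCGTG and 43.8% held either. Of the 37 members with a window, 21 held ACGTG, 20 held GCGTG and 28 held either. The letters stood in 10 of the 11 members with a window that rose and in 15 of the 22 that did not pass the test. Among the members that rose, Eno2 had neither. Ero1l was matched under its current symbol Ero1a. Bnip3l, Ndrg1 and Epas1 had no entry. A match is a description of the sequence, and binding was not measured.

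Some properties of the arrays touch every result below. Between 53.7% and 63.0% of spots were well above background in Cy3 on each array and 0 were saturated. There were only 4 arrays per group, and what most limits the precision was not tested. The arrays lay on 4 slides, of which 3 held both groups. Wild-type replicate 3 stood apart: its mean correlation with the other wild-type arrays was 0.983, the lowest of the 8 arrays within their groups. It was the highest of the 4 wild-type arrays for 26 of the 37 members tested and for 11 of the 12 members that rose, against 38% of all genes tested. Wild-type replicate 2, on the same slide, was the lowest for 10 of those 12, against 36.8% of all genes tested. Of the epithelial marker genes, 8 of 10 were well above background on all 8 arrays and Cldn3 on none; their summed Cy3 signal was 336258 to 366272 in R175Q and 412353 to 458121 in wild type, and 3 of the 8 tested fell. For the fibroblast markers the sum was far smaller, 2695 to 3017 in R175Q and 1736 to 1938 in wild type; 4 of 7 tested rose and Lum was well above background on no array. Macrophage marker sums overlapped between the groups, 43727.5 to 52143.5 in R175Q and 42681.2 to 52608.2 in wild type, and were well above the fibroblast sums. Of these markers 7 of 8 were well above background on all 8 arrays, and 2 of 8 tested were lower. Over all genes tested, 8.68% rose and 9.88% fell. The endothelial sum was 732 to 786 in R175Q and 642 to 708 in wild type. Vwf, 1 of its 3 genes tested, rose by 0.84 ± 0.11 (adjusted p = 0.000494). Pecam1 (−0.21 ± 0.09, adjusted p = 0.165) and Kdr (−0.07 ± 0.07, adjusted p = 0.573) differed the other way and did not pass limma's test. Every sum includes the offset of 50 added to each spot. The erythroid sum was 399 to 480 in R175Q and 297 to 352 in wild type, and its 1 gene tested, Hba-a1, rose by 0.42 ± 0.07 (adjusted p = 0.00302). Lymphocyte sums overlapped, 453 to 485 in R175Q and 473 to 532 in wild type, and neither gene tested passed. Cdh5, Tek and Emcn of the endothelial markers, Cd3d of the lymphocyte markers and Alas2 of the erythroid markers were well above background on no array. In such samples fewer cells of a type and less RNA per cell cannot be told apart, and the part of these differences in the results below was not tested.

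The mitophagy receptors Bnip3 and Bnip3l, the carbonic anhydrase Car9 and 3 pyruvate dehydrogenase kinases were higher in R175Q cells. So were the collagen prolyl hydroxylase subunits P4ha1 and P4ha2. For the kinase Pdk2 the sign depended on the background correction. The oxygen sensors and 12 of 15 glycolytic enzymes did not pass the test. Of the 37 members tested, 12 rose and 1 fell at an adjusted p under 0.05 (limma with Benjamini-Hochberg adjustment over all 17458 genes tested). The 12 are 32.4% of the members, where 8.68% of all genes tested rose. The members were chosen with earlier results of these data known, which limits what this contrast can show. The single fall is 2.7% of the members, where 9.88% of all genes fell. With median centring in place of loess, 16 members rose and 1 fell, and all genes split into 2201 higher and 654 lower, against 1515 and 1724 as reported. The median difference was 0.25 log2 over the members and −0.02 over all genes. Rises ran between 1.21-fold and 1.98-fold, and 4 of the 12 reached 1.5-fold. Among the 24 members that did not pass, 17 differences were positive and 7 negative. Groups did not overlap for 10 of the 12 members that rose. Counting passed and not passed alike, R175Q lay wholly above wild type for 12 of the 37 members (10.5% of all genes) and wholly below for 2 (12.8%). Without wild-type replicate 3, 17 members rose and 1 fell, and 23% of all genes passed in either direction against 18.6% with it. Of the 40 members, Pdk4 was well above background on none of the arrays, and Aldoc and Mxi1 each had 1 spot marked as non-uniform by the scanner software and were left out of the test.

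**Figure D1:**
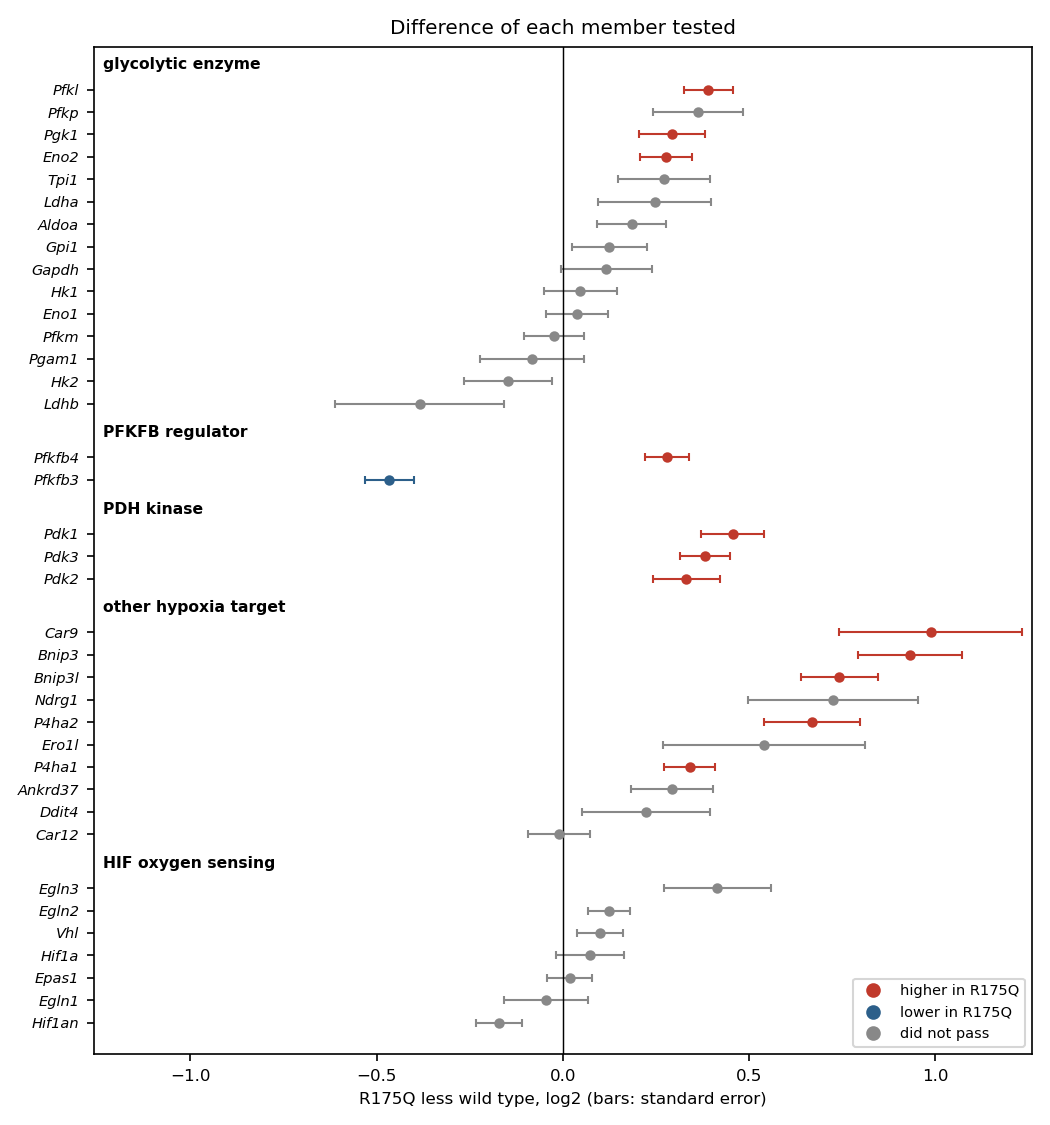
Difference between R175Q and wild type in log2 units for the 37 members tested, grouped by role; points are differences, bars their standard errors, and colour marks members past the threshold. The largest rises lie among the other hypoxia targets, and the 3 pyruvate dehydrogenase kinases are all to the right of 0. Of the oxygen-sensing members 7 of 7 did not pass, and of all genes tested 14219 of 17458 did not.

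The most rises lay among the HIF targets outside glycolysis: 5 of 10 tested rose, 0 fell, and the median difference was 0.60. Of all genes tested, 8.68% rose and 9.88% fell, with a median difference of −0.02. Bnip3 and Bnip3l encode related proteins of the outer mitochondrial membrane that act as mitophagy receptors. Bnip3 had log2 ratios of −1.98, −1.97, −2.10 and −1.84 on R175Q arrays 1 to 4 and −2.93, −3.20, −2.46 and −3.04 on wild-type arrays 1 to 4. All R175Q arrays lay above all wild-type arrays, and the lowest of them was on the same slide as the highest wild-type array. The difference was 0.93 ± 0.14 (SE; 1.91-fold, adjusted p = 0.00124). Bnip3l had −1.43, −1.55, −1.25 and −1.37 in R175Q and −2.22, −2.31, −1.85 and −2.19 in wild type, a difference of 0.74 ± 0.10 (1.67-fold, adjusted p = 0.000854). Again the groups did not overlap. Each gene was read by several probes, which share the transcript and so are not independent. When every probe was fitted on its own, where 7.9% of 22847 probes rose and 9.73% fell, the 3 Bnip3 probes differed by 0.65 to 1.03 and the 4 Bnip3l probes by 0.71 to 0.78, and all 7 passed. The probes used lie at chr7:146082760-146082819 for Bnip3 and chr14:67606210-67606269 for Bnip3l (mm9, both on the minus strand); whether they lie in coding sequence or in a UTR was not determined.

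Carbonic anhydrases hydrate carbon dioxide, and Car9 and Car12 encode members that sit at the cell surface and help to set the pH outside the cell. Car9 had the largest difference of all 37 members. Its log2 ratios were −1.80, −1.80, −2.08 and −1.39 in R175Q and −2.71, −3.49, −2.16 and −2.66 in wild type. The groups did not overlap, but the lowest R175Q value and the highest wild-type value were only 0.08 apart in a gene whose wild-type SD was 0.55. The difference was 0.99 ± 0.24 (1.98-fold, adjusted p = 0.0199). Car9 did not pass without R175Q replicate 4, nor with slide as a fixed block, which gave a difference of 0.95 (adjusted p = 0.0881). Car12, in contrast, showed −3.81 ± 0.16 in R175Q and −3.80 ± 0.08 in wild type (mean ± SD, n = 4 each), a difference of −0.01 ± 0.08 (SE, adjusted p = 0.954).

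P4ha1 and P4ha2 encode catalytic subunits of prolyl 4-hydroxylase, which hydroxylates prolines of collagen chains. P4ha2 had −0.38, −0.45, −0.39 and −0.10 in R175Q and −1.07, −1.30, −0.67 and −0.94 in wild type, a difference of 0.67 ± 0.13 (1.59-fold, adjusted p = 0.00534). For P4ha1 the values were −2.19, −2.17, −2.29 and −2.17 in R175Q and −2.52, −2.71, −2.45 and −2.50 in wild type. Its difference was 0.34 ± 0.07 (1.27-fold, adjusted p = 0.00689). Neither gene's groups overlapped. A second P4ha1 probe differed by 0.06 and did not pass (adjusted p = 0.716 over all probes), so the rise of P4ha1 rests on 1 of 2 probes.

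The remaining hypoxia targets tested did not pass. Ndrg1, a stress-responsive gene of the NDRG family, differed by 0.73 ± 0.23 (adjusted p = 0.0518), with wild-type values between −1.67 and −0.35. Ero1l encodes an oxidase that forms disulphide bonds in the endoplasmic reticulum and differed by 0.54 ± 0.27 (adjusted p = 0.215). In both, wild-type replicate 3 lay among the R175Q arrays and the other wild-type arrays lay below them, and without it both passed. Ankrd37, which encodes an ankyrin repeat protein, had −1.75, −1.78, −1.92 and −1.79 in R175Q and −2.00, −2.47, −1.96 and −1.99 in wild type. Its groups did not overlap, but the difference of 0.29 ± 0.11 did not pass (adjusted p = 0.0992). Ddit4, an inhibitor of mTORC1 signalling, differed by 0.22 ± 0.17 (adjusted p = 0.437). Mxi1, which encodes a MAX-binding repressor, had a marked spot on wild-type replicate 4. With that spot treated as missing, an alternative added after seeing the data, Mxi1 differed by 0.08 ± 0.15 (adjusted p = 0.756).

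**Figure D2:**
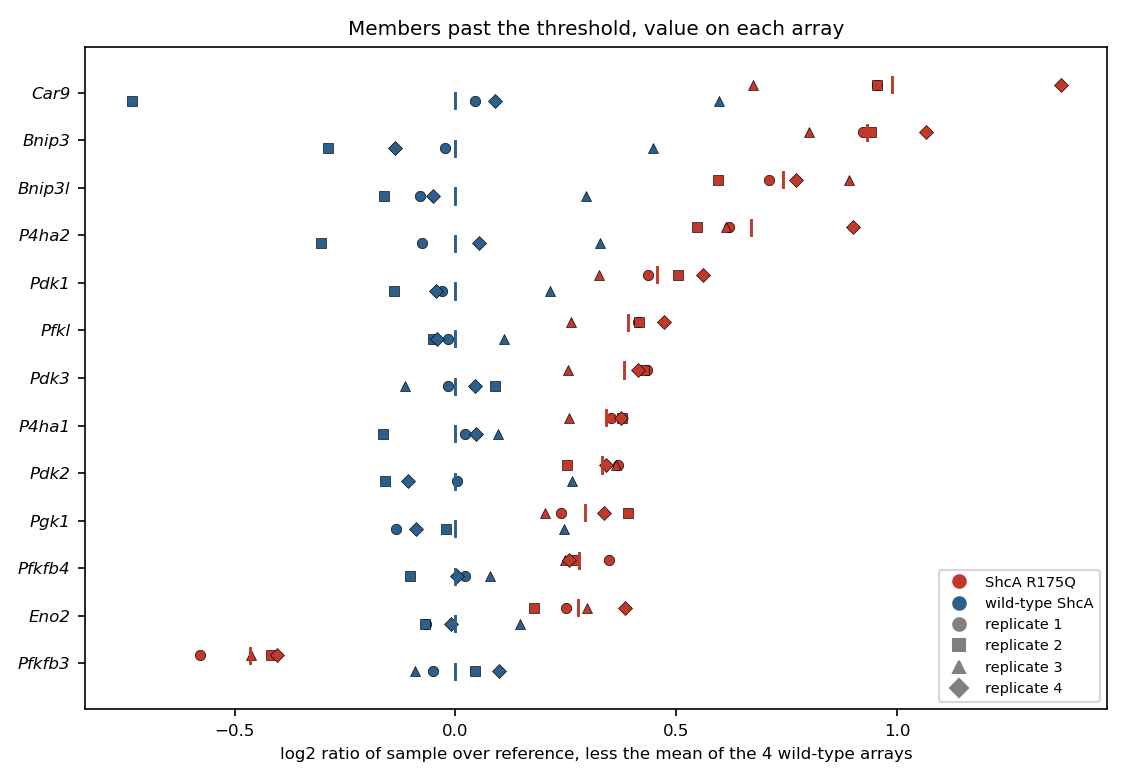
Log2 ratio of sample over reference on each array for the 13 members past the threshold, drawn relative to the mean of the 4 wild-type arrays; R175Q arrays are red and in the upper row of each gene, wild-type arrays blue and in the lower row, symbols give the replicate number and vertical ticks the group means. Groups do not overlap except for Pdk2 and Pgk1, and wild-type replicate 3 is the highest wild-type array for 11 of the 12 genes that rose.

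All 3 pyruvate dehydrogenase kinases tested rose, with differences between 0.33 and 0.46, where 8.68% of all genes tested rose. These kinases inactivate pyruvate dehydrogenase by phosphorylation. Pdk1, the isoform best known as a HIF target, had −0.14, −0.07, −0.25 and −0.01 in R175Q and −0.60, −0.71, −0.36 and −0.62 in wild type, a difference of 0.46 ± 0.09 (1.37-fold, adjusted p = 0.00461). Pdk3 had −0.60, −0.61, −0.78 and −0.62 in R175Q and −1.05, −0.95, −1.15 and −0.99 in wild type, and differed by 0.38 ± 0.07 (1.30-fold, adjusted p = 0.00327). In both genes every R175Q array lay above every wild-type array. For Pdk2 the values were −1.00, −1.11, −1.00 and −1.02 in R175Q and −1.36, −1.52, −1.10 and −1.47 in wild type, so that wild-type replicate 3 lay within the R175Q range. Pdk2 differed by 0.33 ± 0.09 (1.26-fold, adjusted p = 0.0289). It passed in 2 of the 8 fits that left out an array, those without R175Q replicate 2 and without wild-type replicate 3. Its second probe differed by 0.15 and did not pass (adjusted p = 0.433 over all probes). The difference of Pdk2 turned negative with the background fitted over all spots, as given below with Eno2. The fourth kinase, Pdk4, was well above background on no array in either group, and no difference is given for it.

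The PFKFB enzymes carry a kinase and a phosphatase for fructose-2,6-bisphosphate in 1 protein, and the family's pair among the 40 genes, Pfkfb3 and Pfkfb4, moved in opposite directions. Pfkfb3, the isoform whose kinase activity dominates, was the one member that fell. Its log2 ratios were −0.53, −0.37, −0.41 and −0.35 in R175Q and −0.0017, 0.09, −0.04 and 0.15 in wild type. Every R175Q array lay below every wild-type array, and the difference was −0.47 ± 0.07 (1.38-fold lower, adjusted p = 0.000928). Pfkfb4 had −0.54, −0.62, −0.64 and −0.63 in R175Q and −0.86, −0.99, −0.81 and −0.88 in wild type, a difference of 0.28 ± 0.06 (1.21-fold, adjusted p = 0.00882). Its groups did not overlap either. With slide as a fixed block the difference of Pfkfb4 was 0.25 and no longer passed (adjusted p = 0.0646), while that of Pfkfb3 passed. Each gene has a second probe, which was well above background on 2 of 8 arrays and was not tested. The probes used lie at chr2:11393453-11393512 for Pfkfb3 on the minus strand and chr9:108934652-108934711 for Pfkfb4 on the plus strand (mm9).

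Among the glycolytic enzymes themselves, 3 of 15 tested rose, 0 fell, and the median difference was 0.12. Over all genes tested, 8.68% rose and 9.88% fell. Pfkl, the phosphofructokinase isoform named for liver, had −1.11, −1.11, −1.26 and −1.06 in R175Q and −1.54, −1.58, −1.42 and −1.57 in wild type. The groups did not overlap, and the difference was 0.39 ± 0.07 (1.31-fold, adjusted p = 0.00255). The other phosphofructokinase isoforms did not pass: Pfkp differed by 0.36 ± 0.12 (adjusted p = 0.0663), although its second probe passed when probes were fitted on their own (0.26, adjusted p = 0.0383), and the muscle isoform Pfkm differed by −0.02 ± 0.08 (adjusted p = 0.884). Eno2, the enolase named for neurons, had −4.42, −4.49, −4.37 and −4.29 in R175Q and −4.74, −4.74, −4.52 and −4.68 in wild type. Its groups did not overlap, with a difference of 0.28 ± 0.07 (1.21-fold, adjusted p = 0.022). The sign of that difference depends on the background correction: with the background fitted over all spots it was −0.04 (adjusted p = 0.94), and Pdk2 turned likewise to −0.08 (adjusted p = 0.844). Eno2 also no longer passed with slide as a fixed block (0.29, adjusted p = 0.0569), and it passed in 3 of the 8 fits that left out an array. Eno1, the enolase found in most tissues, differed by 0.04 ± 0.08 (adjusted p = 0.813), but its only probe was placed by the array design on chromosome 2, while the gene is on chromosome 4, so copies of near-identical sequence may share its signal.

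Pgk1 encodes the first enzyme of the pathway that yields ATP. Its values were −1.90, −1.75, −1.93 and −1.80 in R175Q and −2.27, −2.16, −1.89 and −2.23 in wild type, with wild-type replicate 3 inside the R175Q range. The difference of 0.29 ± 0.09 was just inside the threshold (1.22-fold, adjusted p = 0.0449) and passed in only 1 of the 8 fits that left out an array, the one without wild-type replicate 3. The only Pgk1 probe was placed by the array design on chromosome 3, while the gene is on chromosome X, so this signal too may be shared with a copy.

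The remaining steps of the pathway did not pass the test. Of the hexokinases, which phosphorylate glucose, Hk2 differed by −0.15 ± 0.12 (adjusted p = 0.456) and Hk1 by 0.05 ± 0.10 (adjusted p = 0.802). The Hk1 probe used was placed by the array design on chromosome 5, while the gene is on chromosome 10. Its other probes, both on chromosome 10, differed by 0.05 and −0.08 when probes were fitted on their own, and neither passed (adjusted p = 0.745 and 0.592). The isomerases gave 0.12 ± 0.10 for Gpi1 (adjusted p = 0.459) and 0.27 ± 0.12 for Tpi1 (adjusted p = 0.169), although a second Tpi1 probe passed on its own (0.30, adjusted p = 0.0302). Aldolase Aldoa differed by 0.18 ± 0.09 (adjusted p = 0.214). Gapdh, the dehydrogenase often used as a constant control, differed by 0.12 ± 0.12 (adjusted p = 0.58). None of its 8 probes passed, with differences between 0.02 and 0.12; the one used was placed on chromosome X and the gene is on chromosome 6. Phosphoglycerate mutase Pgam1 differed by −0.08 ± 0.14 (adjusted p = 0.75).

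The lactate dehydrogenases varied widely between arrays of a group. Ldha, whose subunit favours lactate formation, differed by 0.25 ± 0.15 (adjusted p = 0.314). Its within-slide differences were 0.71, −0.18 and 0.49. Ldhb differed by −0.38 ± 0.23 (adjusted p = 0.295), with group SDs of 0.47 in R175Q and 0.33 in wild type. The aldolase Aldoc could not be tested as planned because its spot on R175Q replicate 3 was marked. Its ratios on the other R175Q arrays were −1.94, −1.96 and −1.89, against −2.62, −2.92, −2.17 and −2.63 in wild type, while the marked spot read 0.62. The unmarked groups did not overlap. In the fit that treats marked spots as missing, chosen after seeing the data, Aldoc differed by 0.65 ± 0.15 (adjusted p = 0.0157, 3 R175Q and 4 wild-type arrays). With the marked spot kept, Aldoc differed by 1.29 and did not pass (adjusted p = 0.119).

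Of the 7 members that sense oxygen or carry the HIF signal, 0 passed limma's test after adjustment and 2 had an unadjusted p under 0.05. Of all 17458 genes tested, 18.6% passed and 5369 had an unadjusted p under 0.05 in the same test. Hif1a and Epas1 encode the alpha subunits of HIF1 and HIF2. Hif1a had 0.56, 0.63, 0.71 and 0.75 in R175Q and 0.56, 0.48, 0.85 and 0.46 in wild type, a difference of 0.07 ± 0.09 (adjusted p = 0.647). Epas1 had −0.76, −0.74, −0.66 and −0.80 in R175Q and −0.82, −0.73, −0.66 and −0.82 in wild type, a difference of 0.02 ± 0.06 (adjusted p = 0.881). The groups overlapped throughout in both genes. A second tested probe of each had the opposite sign without passing, −0.11 for Hif1a (adjusted p = 0.634) and −0.27 for Epas1 (adjusted p = 0.0863).

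Vhl, the substrate receptor of the ubiquitin ligase that binds hydroxylated HIF-alpha, had 0.22, 0.45, 0.29 and 0.35 in R175Q and 0.23, 0.24, 0.20 and 0.24 in wild type (difference 0.10 ± 0.06, adjusted p = 0.315). Hif1an, the asparaginyl hydroxylase, had −0.85, −0.83, −0.91 and −0.88 in R175Q and −0.80, −0.65, −0.58 and −0.75 in wild type. Every R175Q array lay below every wild-type array, but the difference of −0.17 ± 0.06 did not pass (adjusted p = 0.0897). Of the prolyl hydroxylases, Egln1 had −2.91, −3.23, −2.98 and −3.18 in R175Q and −3.18, −3.03, −2.73 and −3.18 in wild type (difference −0.05 ± 0.11, adjusted p = 0.834). Egln2 had 0.05, 0.03, −0.09 and −0.07 in R175Q and −0.17, −0.09, −0.18 and −0.13 in wild type. Its groups were separated by only 0.0017 log2, and the difference of 0.12 ± 0.06 did not pass (adjusted p = 0.177). Egln3, itself a gene that hypoxia induces, had −0.14, −0.06, −0.75 and −0.11 in R175Q and −0.61, −0.65, −0.87 and −0.58 in wild type. Here 3 of the R175Q arrays lay above all wild-type arrays and replicate 3 lay among them, with a difference of 0.41 ± 0.14 (adjusted p = 0.0743).

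**Figure D3:**
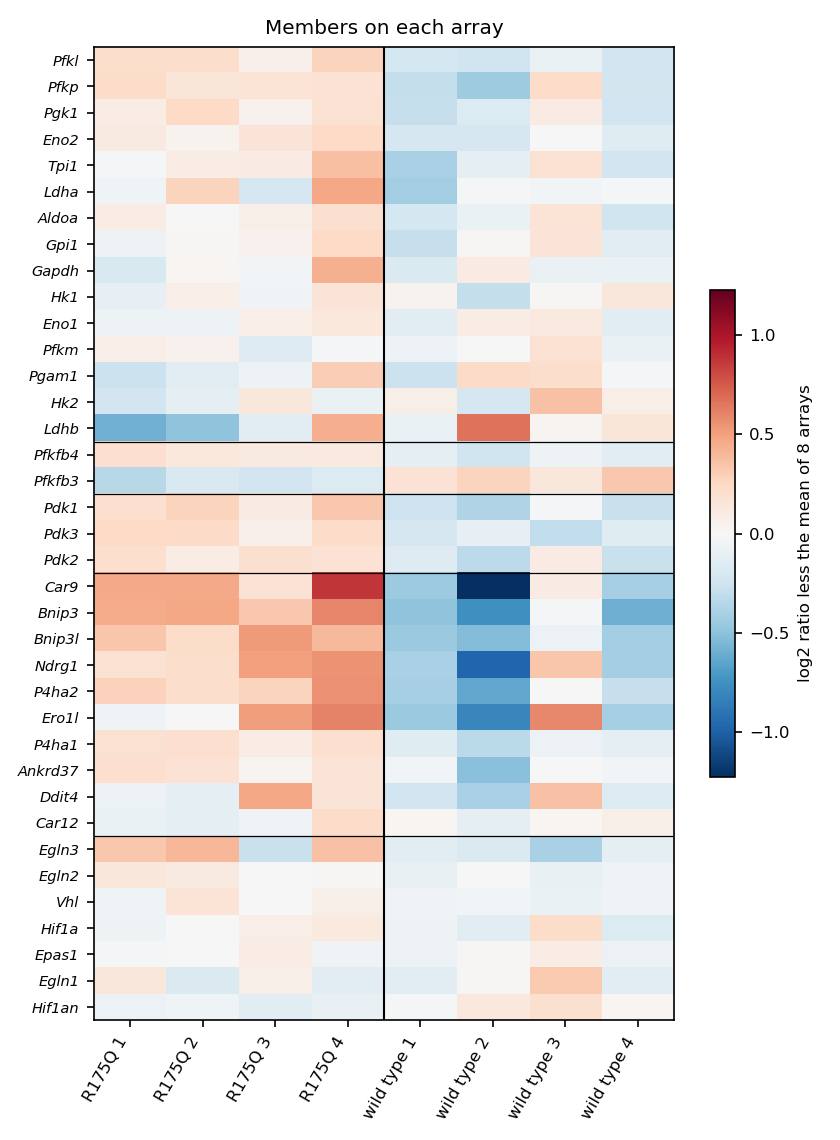
Log2 ratio on each array less the mean of the 8 arrays for the 37 members tested, with R175Q arrays on the left and wild-type arrays on the right and lines between the role groups (glycolytic enzymes, PFKFB enzymes, pyruvate dehydrogenase kinases, other hypoxia targets, oxygen sensing). The other hypoxia targets are mostly red in R175Q and blue in wild type, and wild-type replicate 3 is paler or red where wild-type replicate 2 is darkest.

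Within slides the differences were of unequal size. Of the 37 members, 25 were higher in R175Q on all 3 slides that held both groups and 3 were lower on all 3, against 26.1% and 32.7% of all genes. The 12 members that rose are among the 25, but they were called on the same arrays, which leaves little room for another sign. For the 37 members the median within-slide difference was 0.24 on slide 2 (R175Q 2, wild type 1), 0.07 on slide 3 (R175Q 3, wild types 2 and 3) and 0.37 on slide 4 (R175Q 4, wild type 4). Over all genes these medians were −0.01, −0.02 and −0.03. Slide 3 gave the smallest within-slide difference for Bnip3 (0.72, against 0.96 and 1.20 on slides 2 and 4), Car9 (0.74, against 0.91 and 1.28) and Pdk1 (0.29, against 0.53 and 0.60). For Bnip3l it did not: 0.68, 0.82 and 0.82 on slides 2, 3 and 4. Pfkfb3 was lower in R175Q on all 3 slides, by −0.37, −0.44 and −0.50. With slide as a fixed block 7 members rose, 5 of the 12 no longer passing, and 1 fell, where 12.8% of all genes passed in either direction.

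Other genes of the same pathways, outside the 40, were read from lists. These lists were chosen with earlier results of these data known. Of 23 other genes of glycolysis and of pyruvate entry into mitochondria, 20 were tested, 3 rose and 1 fell, with a median difference of 0.07. Over all genes tested, 8.68% rose and 9.88% fell. Pdp1, the phosphatase that reactivates pyruvate dehydrogenase, rose by 0.42 ± 0.06 (adjusted p = 0.000632), so this opponent of the Pdk enzymes rose as well. Eno3, the muscle enolase, rose by 0.36 ± 0.06 (adjusted p = 0.00365) and Pdhb, a subunit of pyruvate dehydrogenase, by 0.20 ± 0.06 (adjusted p = 0.0389). Pklr, the pyruvate kinase of liver and red cells, changed by −0.73 ± 0.12 (adjusted p = 0.00219), a fall that was −0.02 (adjusted p = 0.957) with the background fitted over all spots. Pkm, the pyruvate kinase of most tissues, differed by 0.10 ± 0.06 (adjusted p = 0.334). The other PFKFB genes did not pass: Pfkfb1 differed by −0.20 ± 0.10 (adjusted p = 0.202) and Pfkfb2 by 0.20 ± 0.08 (adjusted p = 0.127).

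Of 30 other genes known as HIF targets, 25 were tested, 8 rose and 2 fell, with a median difference of 0.13. The shares over all genes tested were 8.68% higher and 9.88% lower. The 6 rises with the lowest p were Stc2, a secreted glycoprotein (0.89 ± 0.14), Plod2, a lysyl hydroxylase of collagen (0.62 ± 0.10), Fam162a (0.47 ± 0.10), the histone demethylase Kdm3a (0.29 ± 0.07), the repressor Bhlhe40 (0.50 ± 0.13) and the mitochondrial protein Higd1a (0.34 ± 0.10), with adjusted p between 0.00168 and 0.0325. Edn1, the precursor of a vasoconstrictor peptide, changed by −0.53 ± 0.15 (adjusted p = 0.033). The other 2 rises, named after their values were seen, were the glucose transporter Slc2a1 (0.52 ± 0.15, adjusted p = 0.0345) and Wsb1 (0.32 ± 0.09, adjusted p = 0.0435). The growth factor Vegfa, also named after its value was seen, differed by 0.53 ± 0.19 and did not pass (adjusted p = 0.0847). This list is sensitive to single arrays: between 3 and 11 of its genes rose when 1 array was left out, 3 without R175Q replicate 4 or wild-type replicate 2 and 11 without wild-type replicate 3. Among 13 tested partners and modifiers of HIF, such as Arnt, Cited2 and Ep300, 0 passed in limma's test, 0 had an unadjusted p under 0.05, and the median difference was 0.02. An unadjusted p under 0.05 was found for 5369 of all 17458 genes in that test.

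**Figure D4:**
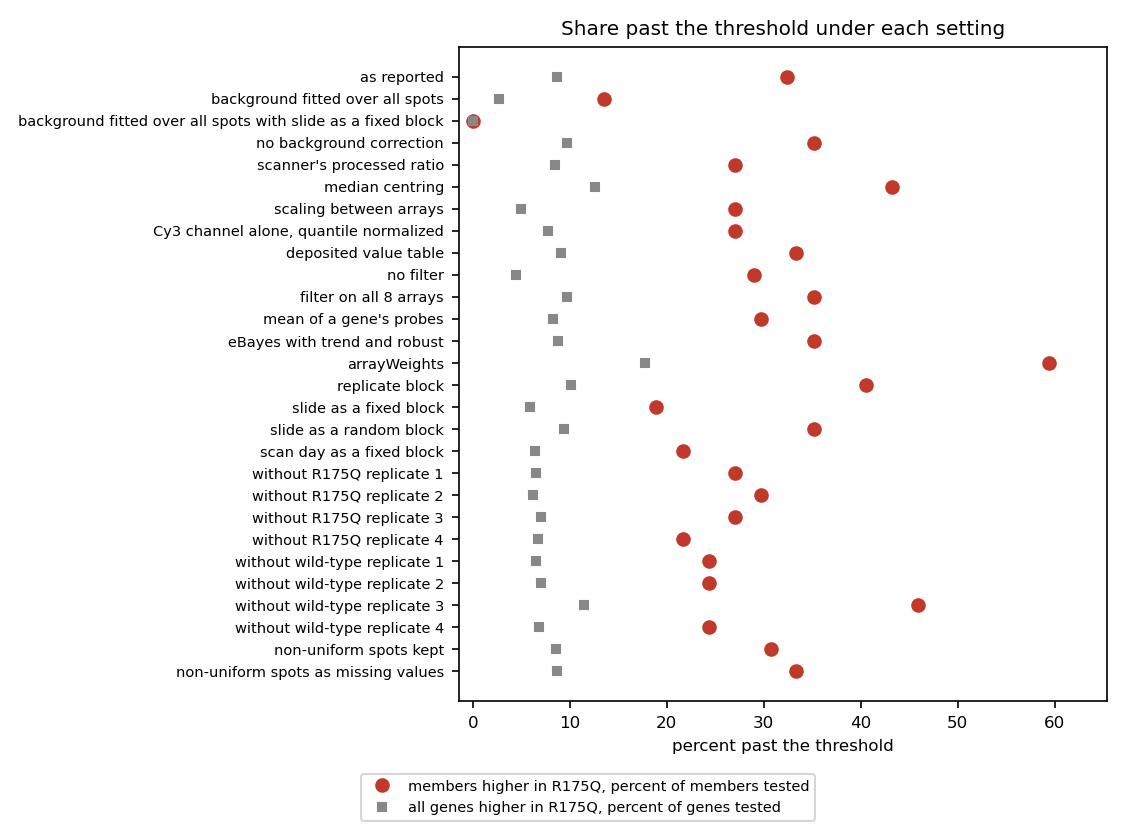
Percent of members (red circles) and of all genes (grey squares) that rose in R175Q under each processing setting, at an adjusted p under 0.05. The members lie at 32.4% and all genes at 8.68% as reported, and both fall to 0% and 0.0172% where the background is fitted over all spots and slide is a fixed block.

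The number of members that passed depended on the processing. With the background fitted over all spots 5 members rose and 1 fell (13.5% higher, against 2.67% of all genes higher), and all 5 were among the 12. Under that background with slide as a fixed block 0 members passed and 6 of 17458 genes did in limma's test. At an unadjusted p under 0.05 in that fit the counts were 6 of 37 members and 2167 of 17458 genes. Pfkl, Pfkfb3, Bnip3, Bnip3l and P4ha2 passed in 26 of 27 alternatives, all but that one, Pdk1 in 25, Pdk3 in 24, Pfkfb4 and P4ha1 in 23 and Car9 in 22. Eno2 passed in 18, Pdk2 in 15 and Pgk1 in 11. Over the 27 alternatives the difference lay between 0.31 and 0.48 for Pfkl, −0.50 and −0.35 for Pfkfb3, 0.83 and 1.08 for Bnip3, 0.69 and 0.85 for Bnip3l and 0.57 and 0.78 for P4ha2, each with 1 direction throughout.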

How the data were processed

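RNA from 8 samples was measured on 8 two-colour Agilent arrays; per the labels' protocols, nanogram amounts of RNA went through linear amplification. The labels disagree on whether the Cy5 reference was mouse or human, and describe both cultured cells and microdissected material, which was not resolved here. The intensity of each spot (mean) and of its surroundings (median) in both channels was written by Agilent Feature Extraction 9.5.3.1, per the file headers. Per the file headers, the log10 ratio in the same files is of processed, dye-normalized signals; it served as an alternative. The authors' deposited table holds log2 values whose scaling and centring are unknown; its direction, Cy3 over Cy5, was judged from a Pearson correlation of 0.901 to 0.941 across probes with the scanner's values, and its column medians were 0.0524 to 0.0617.

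From the spot intensities, background was corrected in limma 3.58.1 (R 4.3.3, statmod 1.5.0) by normexp with offset 50, its parameters taken from the 153 negative control spots of each array, then loess was run within arrays with weight 0 for control spots. This background was preferred because a fit over all spots put the location of the Cy3 background below 0 on every array (−690 to −0.369), while the median of the negative controls was 13.1 to 22.7. The choice was made knowing that it gives more calls (3239 genes, against 879). Spots of a probe were averaged, probes marked non-uniform on any array were left out (122), probes had to be well above background on 4 or more of the 8 arrays in the sample channel, and each gene was represented by its brightest probe (17458 genes). The comparison, R175Q less wild type, used lmFit and eBayes (two-sided, Benjamini-Hochberg over all genes, threshold 0.05). Values after ± are standard errors unless named SD. The adjusted p of a second probe comes from the fit of 22847 probes on their own.

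Gene names came from the files and, through RefSeq accessions (26761 of 28389 probes with one), from a GRCm38.p6 table used for names and chromosomes. Probe coordinates are the files' own, mm9 (NCBI build 37). Promoter windows are RefSeq's, GRCm38.p6, and 37 of 40 members matched. Marker sums add background-corrected, quantile-normalized Cy3 values, offset included. The same procedure was tested on simulated data with the spreads of these genes. It recovered 58% of genes changed by 0.5 log2 and 95% of those changed by 1 log2. A member that did not pass is therefore not shown to be unchanged. The members, lists and rules for named genes were chosen with earlier results of these data known: every member is named, with values on every array for those past the threshold and the 7 of oxygen sensing, and from each other list at most 6 rises and 6 falls, those of lowest p; a few list genes that this rule or the marker check would name are not reported here. The alternatives changed the background, normalization, filter, probe summary, variance model, array weights and blocks, or left out 1 array. Pgm1 was left out of the lists because its symbol changed meaning between annotations.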

Additional observations from a re-analysis of the deposited data

Results flagged for a closer look

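In 4 groups of 4 arrays a single array lay far from the others, its gap to the nearest array, as a share of the group's range, being above Dixon's critical value. Both groups of each of the 37 members tested were searched. Chance alone flags about 1 in 20 groups, so a few flags would arise by chance over this many groups. Egln3 in R175Q was lowest on replicate 3 at −0.75, with the nearest other R175Q array at −0.14. Pdk3 in R175Q was also lowest on replicate 3, at −0.78 with the nearest at −0.62. In wild type, Ldha was lowest on replicate 1 at −0.11, with the nearest at 0.29, and Ankrd37 was lowest on replicate 2 at −2.47, with the nearest at −2.00. Without R175Q replicate 3, Egln3 passed the test. Pdk3 passed with or without any single array.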

How the results depend on the processing

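The limits are few arrays, low ratios to the reference for Eno2, Car12 and Ldhb, and 4 probes of uncertain target (Pgk1, Eno1, Gapdh, Hk1). As reported, 1515 genes rose and 1724 fell, with 12 members higher and 1 lower, 8 and 2 of the other HIF targets, and 3 and 1 of the other glycolysis and pyruvate entry genes. Of 999 member values under alternatives, 863 kept direction and side of the threshold, 56 no longer passed, 32 newly passed and 48 changed sign; in these and the counts below the cause was not tested.

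The background fitted over all spots gave 466 genes higher and 413 lower, 5 members higher, 1 other HIF target higher and 0 lower, 0 other glycolysis genes lower, Eno2 −0.040, Pdk2 −0.077 and Epas1 −0.026. With slide as a fixed block added it gave 3 genes higher and 3 lower, 0 members, 0 other HIF targets and 0 other glycolysis genes in either direction, Eno2 −0.041, Pdk2 −0.118, Epas1 −0.023, Pgam1 0.026 and Pklr 0.054. Slide as a fixed block alone gave 7 members higher, 5 other HIF targets higher and 1 lower, and Pgam1 0.0203. As a random block it gave 2 other glycolysis genes lower. Scan day as a block gave 0 other HIF targets lower, Pgam1 0.0212 and Car12 0.0212. No background correction gave 1 other HIF target lower, Egln1 0.0198 and Car12 0.111. The scanner's processed ratio gave 5 other HIF targets higher, Egln1 0.0208 and Car12 0.194. Median centring gave 654 genes lower, 0 other HIF targets lower, 1 HIF partner higher, Pfkm 0.049, Egln1 0.089 and Car12 0.129. Scaling between arrays gave 871 genes higher and 897 lower, 5 other HIF targets higher and 0 lower, 1 other glycolysis gene higher, Hk1 −0.087, Pfkm 0.0028, Ldhb 0.067, Egln1 0.149 and Car12 0.269. The Cy3 channel alone gave 4 other HIF targets higher and 1 lower, Hk1 −0.125, Hk2 0.052 and Car12 0.054. The deposited table gave 1 other HIF target lower and Car12 0.075. No filter gave 5 other HIF targets higher and 0 lower. Every probe on its own gave 19 member probes higher and 5 other glycolysis probes higher. The mean of a gene's probes gave 2 other glycolysis genes lower, Hif1a −0.020 and Epas1 −0.128. Weighting the arrays gave 3089 genes higher and 3664 lower, 22 members higher, 13 other HIF targets higher and 4 lower, 5 other glycolysis genes higher and 3 lower, Hk1 −0.030, Pfkm 0.091, Pgam1 0.023 and Egln1 0.054.

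Leaving out 1 array at a time gave 1079 to 2005 genes higher and 1173 to 2015 lower, 8 to 17 members higher and 1 lower each time, 3 to 11 other HIF targets higher and 0 to 1 lower, and 2 to 3 other glycolysis genes higher and 1 to 2 lower. The members numbered 8 without R175Q replicate 4 and 17 without wild-type replicate 3. Differences near 0 lay on both sides of it over these fits: Car12 between −0.086 and 0.028, Egln1 between −0.101 and 0.054, Eno1 between −0.0035 and 0.083, Epas1 between −0.0074 and 0.051, Pfkm between −0.055 and 0.036, Gapdh between −0.0093 and 0.198, and Hk1 between −0.043 and 0.103. Keeping the spots marked non-uniform, or treating them as missing, was added after seeing the data and gave 12 and 13 members higher.

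The groups share replicate numbers 1 to 4, but the numbers were not shown to pair the samples: the deviations of same-numbered samples from their group means correlated at 0.338, 0.0144, 0.48 and 0.0556, and replicates 2 and 4 matched other numbers better. With a replicate block 15 members rose and 1 fell, of 3683 genes called, and 2 other glycolysis genes fell.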
